A study of Homo sapiens with 24 samples.

Results

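GLB1, the gene of the lysosomal acid β-galactosidase whose activity gives the SA-β-gal stain of senescent cells, was followed together with 39 further lysosomal genes in SKBR3 breast cancer cells driven into therapy-induced senescence (TIS). The 40 genes encode hydrolases, lipid carriers and membrane proteins of the lysosome, and a row of the count table belonged to the set when its gene symbol was one of the 40. Rows for 39 of them were found among the 14493 genes of the table, and IDUA was not analysed here. By role, they were 11 glycosidases, 5 sulfatases, 8 lipid hydrolases and carriers, 9 peptidases and 6 membrane proteins, and all 39 passed the filter on low counts in every comparison. The rule is by name and uses no measured value, but the members were chosen with earlier results of these data known.

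RNA-seq covered 24 libraries of the HER2-positive line SKBR3 (SKBr3 in the labels), 3 in each of 8 groups. The 2 untreated groups were proliferative control cells of day 0 and control cells of day 7, and their labels name no refeed. The 6 TIS groups were collected on day 7 after a refeed on day 3, and each had received 1 drug. ND-646, an inhibitor of acetyl-CoA carboxylase, was given at 250 nmol/L, and TVB-3166, an inhibitor of fatty acid synthase, at 250 nmol/L. These 2 groups, whose drugs block fatty acid synthesis, are called FASTIS. The other 4 TIS groups received bleomycin at 10 µmol/L or doxorubicin at 10 nmol/L, which damage DNA, palbociclib (Palboclib in the labels) at 1 µmol/L, which inhibits the cyclin-dependent kinases of the G1 phase, or alisertib at 500 nmol/L, which inhibits Aurora kinase A. The labels name no genetic change, and the cells of all 8 groups came from a single established line. The labels do not say that replicates were separate cultures, so the p-values measure only the spread between these samples.

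Lysosomes take apart glycans, sulfated sugars, lipids and proteins with acid hydrolases that are made in the endoplasmic reticulum, tagged for sorting in the Golgi and activated by the low pH that a proton pump maintains. Membrane proteins such as LAMP1 and LAMP2 line the organelle, and export proteins such as NPC1 and NPC2 carry cholesterol out of it. Many of these genes carry a CACGTG-centred motif near their start, to which the factors TFEB, TFE3 and MITF bind, and senescent cells are known for a large lysosomal mass.

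Total counts ranged from 29405121 to 44316330 per library, and no pair of libraries held identical counts. The labelled cell type was checked on its markers: 6 of 7 epithelial genes of this line were in the table, with summed levels of 9938 to 20059 CPM (counts scaled to a common library total), while 0 of 4 leukocyte markers and 1 of 4 fibroblast markers were. The lowest count of every library was 1, so a gene without reads in some library is not in the table. Absence of a marker therefore does not give its level in the other libraries. Of 3 endothelial markers 2 were in the table, VWF near 0 in all libraries and CDH5 at 26.5 to 44.3 CPM with bleomycin, 37.8 to 46.95 with doxorubicin and 37.9 to 45.3 with palbociclib, against 3.43 to 6.88 at day 0. CDH5 was at 9.48 to 14.05 CPM with ND-646, 6.69 to 9.67 with TVB-3166 and 5.59 to 7.69 with alisertib. The part of CDH5-expressing cells in the results was not tested. One ND-646 library, replicate 1, stood apart within the set: 8 of the 39 genes lay over 1.5-fold above both other ND-646 libraries there, among them CD63, NPC2, NEU1 and GLA, whereas no other library had more than 1 such gene. Called values against day 0 or between drug groups that moved by over 1.5 times without it are given both ways. The TMM factor was 0.791 for ND-646 replicate 1, against 0.951 and 0.938 for replicates 2 and 3, which raises its CPM beside theirs. The part of this scaling in that library's standing apart was not tested. CPM are relative to each library's corrected total, and in bulk samples fewer cells of a kind cannot be told apart from less RNA per cell.

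The promoters of 4 members are shown, all chosen from the 13 of 39 compared windows that hold CACGTG. The window of IDS, which had the largest rise with ND-646, holds none and is not shown. GAA (acid α-glucosidase) was higher in all 6 TIS groups, CTSD (the aspartic protease cathepsin D) was the most abundant member per length, CD63 (a tetraspanin of late endosomes) had the second largest rise with ND-646, and MCOLN1 (the lysosomal calcium channel mucolipin 1) was lower in 4 groups. Each run is the 300 bases from 250 before to 50 after the start of the gene's Ensembl canonical transcript in GRCh37, read 5′ to 3′ along the gene, and the capitals mark CACGTG, which reads the same on both strands.
GAA (chr17:78075130-78075429, plus strand): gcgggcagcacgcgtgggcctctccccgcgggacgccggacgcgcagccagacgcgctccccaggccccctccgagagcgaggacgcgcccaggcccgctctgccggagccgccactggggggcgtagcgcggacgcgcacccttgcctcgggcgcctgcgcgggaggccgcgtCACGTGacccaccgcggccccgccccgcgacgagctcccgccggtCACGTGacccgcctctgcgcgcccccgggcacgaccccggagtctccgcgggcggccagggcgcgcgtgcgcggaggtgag
CTSD (chr11:1785108-1785407, minus strand): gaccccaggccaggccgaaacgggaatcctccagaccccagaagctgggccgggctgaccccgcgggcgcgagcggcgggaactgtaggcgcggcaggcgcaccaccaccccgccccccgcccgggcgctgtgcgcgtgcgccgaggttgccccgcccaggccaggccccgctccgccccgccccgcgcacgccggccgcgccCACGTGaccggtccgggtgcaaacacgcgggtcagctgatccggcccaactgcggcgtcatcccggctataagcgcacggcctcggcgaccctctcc
CD63 (chr12:56122744-56123043, minus strand): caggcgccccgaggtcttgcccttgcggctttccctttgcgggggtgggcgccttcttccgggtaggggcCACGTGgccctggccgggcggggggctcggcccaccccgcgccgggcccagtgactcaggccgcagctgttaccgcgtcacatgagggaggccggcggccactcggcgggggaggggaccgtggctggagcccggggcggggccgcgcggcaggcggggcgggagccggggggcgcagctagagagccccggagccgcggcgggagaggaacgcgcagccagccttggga
MCOLN1 (chr19:7587260-7587559, plus strand): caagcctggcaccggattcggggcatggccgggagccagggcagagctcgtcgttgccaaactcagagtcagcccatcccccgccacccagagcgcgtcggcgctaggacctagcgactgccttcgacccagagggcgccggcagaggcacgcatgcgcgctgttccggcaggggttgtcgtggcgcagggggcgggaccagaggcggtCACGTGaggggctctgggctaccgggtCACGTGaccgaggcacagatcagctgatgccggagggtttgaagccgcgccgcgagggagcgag
Such windows were compared for 39 of the 40 genes. CACGTG was present in 13 of the 39 (33.3%), against 10.5% of 12128 windows of genes in the count table. The longer TCACGTGA, which contains it, was in 7 of the 39 (17.9%), against 2%. The 13 were HEXA, GAA, NEU1, NAGLU, SGSH, GALNS, CTSA, CTSB, CTSD, LAMP1, CD63, MCOLN1 and CLN3.

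Levels within the set spanned a wide range. Per kilobase of transcript, untreated day-0 cells held 1551 CPM of CTSD, 1296 of PPT1, which removes palmitate from proteins, and 588 of PSAP, the precursor of the saposins that present lipids to hydrolases. GLB1 ranked 11 of 39 at 60.3 CPM per kilobase, and ARSB, which removes sulfate from dermatan sulfate, ranked last at 2.95. CTSD, PSAP and PPT1 took 65.4 to 72.1% of the set's counts in every library. Together the 39 genes took 1.11% ± 0.0759 (SD, n = 3) of all counts at day 0 and 1.18% ± 0.0432 at day 7. The share was 1.63% ± 0.158 with ND-646 (1.54% over the other 2 libraries without replicate 1), 1.61% ± 0.04 with TVB-3166 and 1.61% ± 0.0646 with palbociclib. It was 1.36% ± 0.0198 with bleomycin, 1.33% ± 0.0236 with doxorubicin and 1.30% ± 0.0405 with alisertib. All 18 TIS libraries lay above all 6 untreated libraries on this share, which was not tested and follows mainly the 3 most abundant genes.

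**Figure D1:**
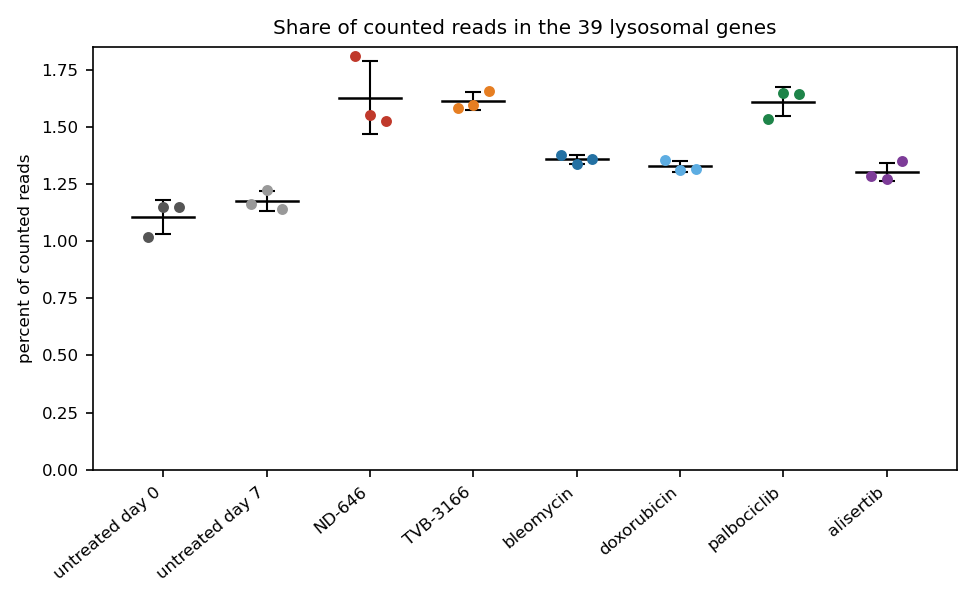
Percent of each library's counted reads that fell in the 39 lysosomal genes, by group. Points are single libraries, the horizontal line is the mean and the bar 1 SD (n = 3), and the 18 TIS libraries lie above the 6 untreated ones.

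GLB1 (GRCh37 chr3:33038101-33138694, minus strand) was higher in every TIS group than in untreated day-0 cells, by less than 2-fold. The day-0 libraries held 137, 161 and 158 CPM and the day-7 untreated libraries 169, 165 and 156. The ND-646 libraries held 243, 210.3 and 219 CPM and the TVB-3166 libraries 226, 198 and 207. The values were 196, 187 and 195 CPM with bleomycin and 188, 186 and 187 with doxorubicin. They were 199, 194 and 207 CPM with palbociclib and 199, 174 and 197 with alisertib. All 18 TIS libraries lay above all 6 untreated libraries. Tested with edgeR's quasi-likelihood model and adjusted by Benjamini-Hochberg over all genes, the log2 fold change against day 0 was 0.55 ± 0.14 (adjusted p = 0.0137) with ND-646 and 0.47 ± 0.10 (adjusted p = 0.00197) with TVB-3166, where the error is 1 SE. It was 0.40 ± 0.092 (adjusted p = 0.00427) with palbociclib and 0.35 ± 0.10 (adjusted p = 0.0187) with bleomycin. It was 0.32 ± 0.095 (adjusted p = 0.0243) with alisertib and 0.31 ± 0.091 (adjusted p = 0.0172) with doxorubicin. Untreated cells at day 7 differed from day 0 by 0.11 ± 0.092 (adjusted p = 0.484).

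The GLB1 call rested on single libraries in 4 of the 6 groups. Without day-0 replicate 1, which had the lowest GLB1 value, the adjusted p by edgeR was 0.0557 for ND-646 and 0.0563 for bleomycin. It was 0.0578 without bleomycin replicate 3 and 0.0702 without doxorubicin replicate 1. It was 0.0841 without alisertib replicate 1 and 0.0954 without alisertib replicate 3. The TVB-3166 and palbociclib calls held without any 1 library. Against the untreated day-7 cells instead, the GLB1 log2 fold change was 0.46 (adjusted p = 0.0187) with ND-646, 0.37 (adjusted p = 0.00223) with TVB-3166 and 0.31 (adjusted p = 0.00506) with palbociclib. It was 0.26 (adjusted p = 0.0261) with bleomycin and 0.22 (adjusted p = 0.0279) with doxorubicin. With alisertib it was 0.23 (adjusted p = 0.0531), which did not pass. GLB1 shares exon sequence on the same strand with TMPPE, an overlapping phosphoesterase gene, and the TMPPE log2 fold change was 0.097 (adjusted p = 0.847) with ND-646 and -0.022 (adjusted p = 0.934) with TVB-3166.

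In 1 fit over the 24 libraries, GLB1 stood in the order ND-646 (224 CPM), TVB-3166 (210.5), palbociclib (200.04), bleomycin (193), alisertib (189.9), doxorubicin (187), untreated day 7 (163) and untreated day 0 (152). By edgeR, 0 of the 7 neighbouring pairs in this order passed in that fit. The smallest of their adjusted p-values was 0.0705, between doxorubicin and untreated day 7, whose libraries did not overlap, and in the fit of these 6 libraries alone that difference was 0.22 (adjusted p = 0.0279). Of all 28 pairs, 13 passed. ND-646 was above bleomycin (adjusted p = 0.0459), alisertib (0.02) and doxorubicin (0.0133), while no pair among bleomycin, doxorubicin, palbociclib and alisertib passed. Across the 8 group means the members whose log2 CPM followed GLB1 most closely were SCARB2 (Pearson's r = 0.980), ASAH1 (0.964) and IDS (0.943), a description over 8 means that share the same libraries and controls.

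**Figure D2:**
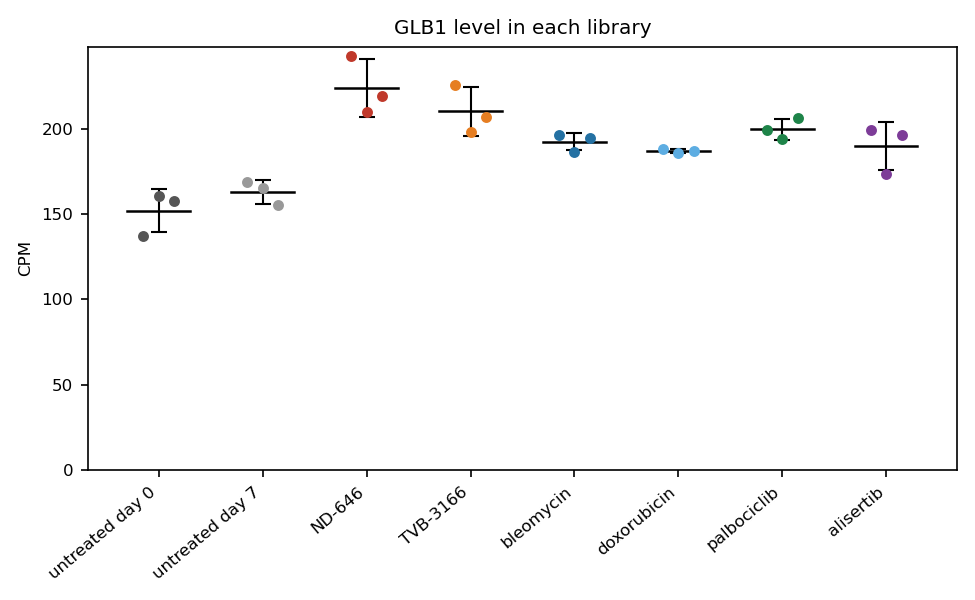
GLB1 level in CPM in each of the 24 libraries, by group. Points are libraries, the line is the mean and the bar 1 SD (n = 3). The group means run from 152 CPM in untreated day-0 cells to 224 CPM with ND-646.

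Across the set, more members were higher than lower in each TIS group, whereas about as many of all genes rose as fell. With ND-646, 22 of 39 members were higher (19.1% of all genes tested were) and 4 lower (18.8% of all genes) than at day 0. With TVB-3166, 22 of 39 members were higher (27.4% of all genes tested were) and 4 lower (27.7% of all genes). With bleomycin, 20 of 39 members were higher (24.1% of all genes tested were) and 7 lower (25.3% of all genes). With doxorubicin, 16 of 39 members were higher (23.7% of all genes tested were) and 3 lower (24.8% of all genes). With palbociclib, 18 of 39 members were higher (26% of all genes tested were) and 5 lower (27.2% of all genes). With alisertib, 12 of 39 members were higher (17.7% of all genes tested were) and 2 lower (19.6% of all genes). The median log2 fold change of the 39 members was 0.55 with ND-646, 0.41 with TVB-3166, 0.35 with bleomycin, 0.23 with palbociclib, 0.19 with doxorubicin and 0.14 with alisertib, and that of all genes lay between -0.01 and 0.02. Untreated day-7 cells had 0 members higher (0.389% of all genes) and 0 lower (0.198%) by edgeR, with 12 members at an unadjusted p under 0.05 and 5 called by DESeq2. The 6 TIS comparisons share the 3 day-0 libraries, so their values are set side by side and not counted as separate evidence.

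Fewer of these changes reached 2-fold. Under a rule of at least a 2-fold change with an unadjusted p under 0.05, with ND-646, 10 members were higher (11.4% of all genes) and 3 lower (9.29%). With TVB-3166, 7 members were higher (10.9% of all genes) and 3 lower (6.75%). With bleomycin, 6 members were higher (11.5% of all genes) and 0 lower (7.3%). With palbociclib, 5 members were higher (10.5% of all genes) and 0 lower (6.15%). IDS and FUCA1 passed this rule in each of these 4 groups. With doxorubicin, 1 member was higher (10% of all genes) and 0 lower (2.9%). With alisertib, 1 member was higher (6.47% of all genes) and 0 lower (1.44%). The single members were IDS and GAA. In untreated day-7 cells, 0 members were higher (1.66% of all genes) and 0 lower (0.33%). Between TVB-3166 and ND-646, 0 members were higher (2.13% of all genes) and 0 lower (1.01%). Between FASTIS and the other TIS groups, 3 members were higher (2.36% of all genes) and 0 lower (4.78%).

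In all 6 TIS groups 9 members were called higher: GLB1, GAA, MAN2B1, FUCA1, ARSA, IDS, ASAH1, LAMP2 and SCARB2 (6.51% of all genes tested were). Against day 7, 7 were called higher in all 6 (3.08% of all genes), and 6 were against both references (2.26%), namely GAA, MAN2B1, ARSA, IDS, ASAH1 and SCARB2. Against day 0, a further 17 were higher in 1 to 5 groups and lower in none, 9 were lower in 1 to 5 groups and higher in none, and 0 were called in both directions. The shares of all genes in these 3 classes were not worked out, so no excess of members is read from them. NAGLU, HYAL2, CTSZ and LAMP1 were called against day 0 in no group. Of these, LAMP1 was called against day 7. The map of log2 fold changes shows that most rises were shared between the groups while their size differed. The calls that held in every fit without 1 library were 15 of 22 rises with ND-646, 21 of 22 with TVB-3166, 17 of 20 with bleomycin, 10 of 16 with doxorubicin, 16 of 18 with palbociclib and 6 of 12 with alisertib.

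**Figure D3:**
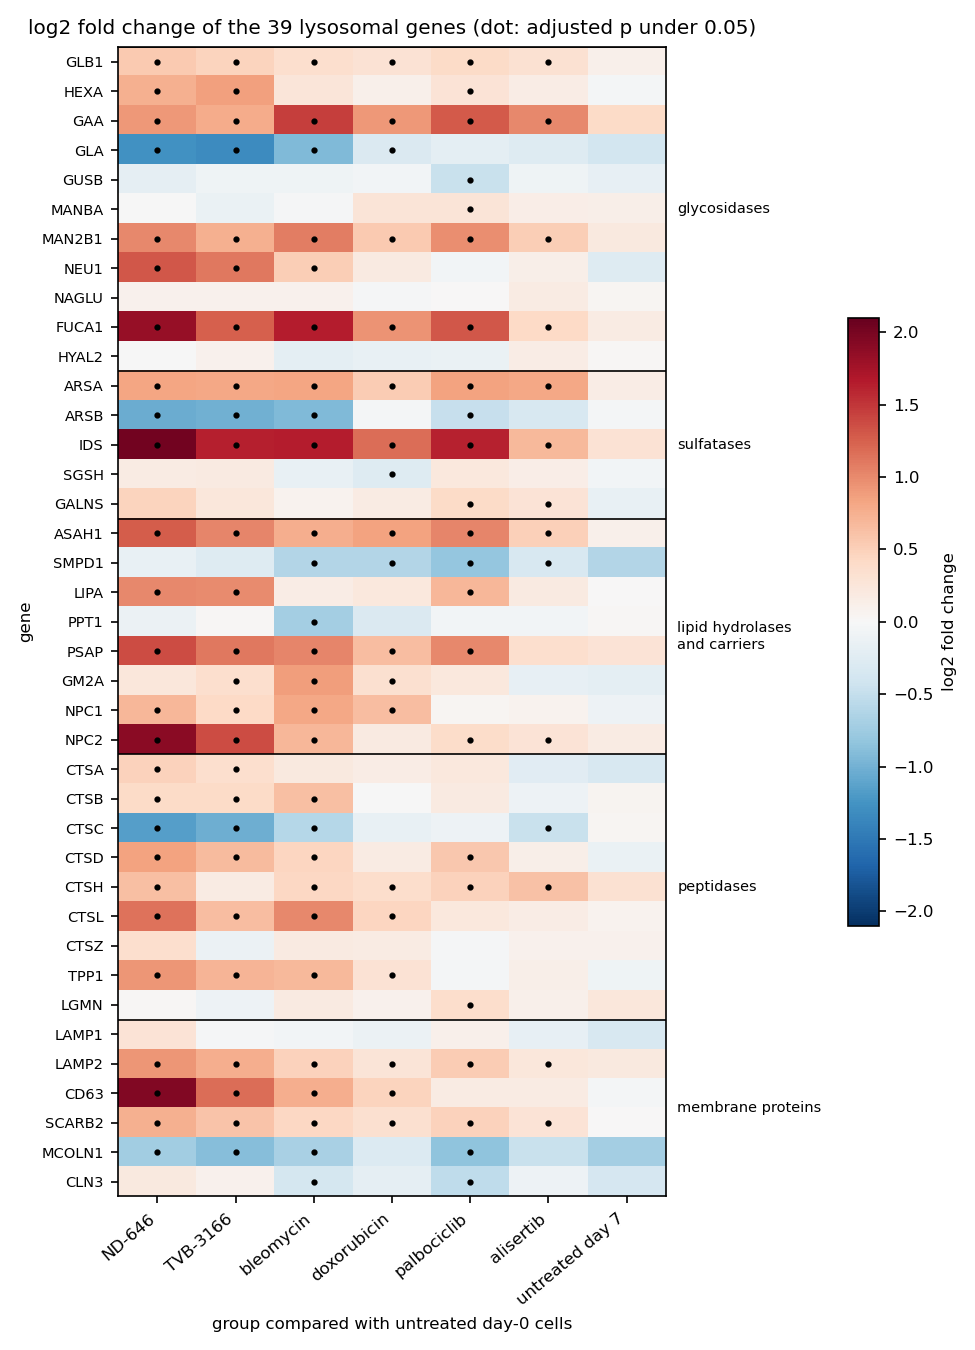
log2 fold change against untreated day-0 cells of the 39 lysosomal genes (rows, by role) in the 6 TIS groups and in untreated day-7 cells (columns). Red is higher and blue lower, a dot marks an adjusted p under 0.05 by edgeR, and the values run from -1.32 (GLA, TVB-3166) to 2.03 (IDS, ND-646).

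Glycosidases cut sugars from glycoproteins, glycolipids and glycogen. Of the 11 glycosidases, 6 rose and 1 fell with ND-646, 6 rose and 1 fell with TVB-3166, and 5 rose and 1 fell with bleomycin. The counts were 4 and 1 with doxorubicin, 6 and 1 with palbociclib and 4 and 0 with alisertib. Of all genes, 17.7% (alisertib) to 27.4% (TVB-3166) rose and 18.8% (ND-646) to 27.7% (TVB-3166) fell, beside which the counts of every role stand. FUCA1, which removes fucose, had the largest rise of this role with ND-646, TVB-3166, bleomycin, doxorubicin and palbociclib. Its levels were 14.1, 14.3 and 17.2 CPM at day 0, 51.6, 61.5 and 48.99 with ND-646 and 35.5, 66.2 and 40.1 with bleomycin, with no overlap between these groups and day 0. FUCA1 rose on the log2 scale by 1.83 ± 0.17 (adjusted p = 8.39e-05) with ND-646, 1.65 ± 0.23 (adjusted p = 0.000396) with bleomycin and 1.30 ± 0.12 (adjusted p = 1.65e-05) with palbociclib by edgeR. GAA, which breaks down glycogen and is deficient in Pompe disease, had its largest rises with bleomycin, palbociclib and alisertib. It had 66.5, 75.5 and 62.8 CPM at day 0, 185, 206 and 165 with bleomycin and 141, 183 and 177 with palbociclib, log2 fold changes of 1.45 ± 0.12 (adjusted p = 4.39e-05) and 1.29 ± 0.12 (adjusted p = 1.22e-05). With alisertib it was the member with the largest rise against day 0, 1.01 ± 0.097 (adjusted p = 0.000117). Against day 7 the alisertib value was 0.64 (adjusted p = 0.00392), below that of ARSA, 0.69 (adjusted p = 0.000802). The lysosomal α-mannosidase gene MAN2B1 rose in all 6 groups, by 0.52 with alisertib to 1.08 with bleomycin on the log2 scale.

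NEU1, the lysosomal sialidase, was higher than at day 0 in 3 groups and than at day 7 also with doxorubicin, 0.48 (adjusted p = 0.00432), and alisertib, 0.42 (adjusted p = 0.0235). Its libraries held 61.7, 52.8 and 57.1 CPM at day 0, 209, 105 and 114 with ND-646 and 142, 105 and 119.7 with TVB-3166. All 6 FASTIS libraries lay above every day-0 library, and ND-646 replicate 1 was the highest. Its log2 fold change was 1.31 ± 0.25 (adjusted p = 0.00382) with ND-646, or 0.94 (adjusted p = 8.76e-05) without that library, and 1.10 ± 0.12 (adjusted p = 2.34e-05) with TVB-3166. HEXA, a subunit of the hexosaminidase that degrades GM2 ganglioside, rose by 0.86 ± 0.10 (adjusted p = 4.24e-05) with TVB-3166 and by 0.75 ± 0.20 (adjusted p = 0.019) with ND-646, and the ND-646 value was 0.49 (adjusted p = 0.00413) without replicate 1. HEXA lost its ND-646 call when any 1 day-0 library was left out, at an adjusted p of 0.0545 to 0.079 by edgeR.

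GLA, the α-galactosidase that is deficient in Fabry disease, moved the other way. It held 39.2, 33.1 and 34.95 CPM at day 0, 20.7, 10.1 and 13.7 with ND-646 and 14.1, 13.5 and 15.1 with TVB-3166. The FASTIS libraries were all lower than the day-0 libraries, and ND-646 replicate 1 was the highest of them. GLA changed on the log2 scale by -1.32 ± 0.11 (adjusted p = 4.53e-06) with TVB-3166 and -1.28 ± 0.24 (adjusted p = 0.00373) with ND-646, or -1.58 (adjusted p = 3.89e-05) without replicate 1. With bleomycin GLA was -0.92 ± 0.19 (adjusted p = 0.00345), while its fall with doxorubicin, -0.30 ± 0.11 (adjusted p = 0.0485), was lost in 5 of the 6 fits without 1 library and was 0.11 (adjusted p = 0.399) against day 7. GLA lies opposite to RPL36A, a ribosomal protein gene whose log2 fold change was -0.12 (adjusted p = 0.359) with TVB-3166, and whether counting used the strand is not stated. By edgeR, RPL36A was at 0.71 (adjusted p = 0.109) with ND-646, 0.018 (adjusted p = 0.911) with bleomycin and -0.23 (adjusted p = 0.113) with palbociclib. It was lower with doxorubicin, -0.48 (adjusted p = 0.00902), and alisertib, -0.29 (adjusted p = 0.0376). The part of RPL36A in the GLA values was not tested. GUSB, the β-glucuronidase, served as a reference gene for RT-qPCR in the study. GUSB was lower with palbociclib, -0.47 ± 0.085 (adjusted p = 0.000916) and in no other group, with values of -0.18 to -0.064 in the others. Without ND-646 replicate 1 it was also called with ND-646, at -0.39 (adjusted p = 0.0078). Counts of GUSB may also be divided with its pseudogene copies. NAGLU and HYAL2, which act on heparan sulfate and hyaluronan, had log2 fold changes of -0.21 to 0.17 and no call.

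Sulfatases remove sulfate from sugars and lipids. Of the 5 sulfatases, 2 rose and 1 fell with ND-646, 2 rose and 1 fell with TVB-3166, and 2 rose and 1 fell with bleomycin. The counts were 2 and 1 with doxorubicin, 3 and 1 with palbociclib and 3 and 0 with alisertib. IDS, the iduronate sulfatase that acts on heparan and dermatan sulfate, had the largest rise of the set with ND-646, TVB-3166, bleomycin, doxorubicin and palbociclib. It held 29.6, 34.2 and 35.9 CPM at day 0, 113, 153 and 143 with ND-646 and 93.1, 106 and 109 with TVB-3166. It held 85.2, 116 and 109.6 CPM with bleomycin, 91.4, 111 and 105 with palbociclib and 52.1, 55.5 and 52.9 with alisertib. No TIS library overlapped the day-0 range, and the alisertib libraries were the lowest of the 5 groups named. IDS rose on the log2 scale by 2.03 ± 0.17 (adjusted p = 5.74e-05) with ND-646, 1.63 ± 0.11 (adjusted p = 9.16e-07) with TVB-3166, 1.62 ± 0.11 (adjusted p = 2.45e-06) with palbociclib and 1.17 ± 0.11 (adjusted p = 3.88e-05) with doxorubicin. Without ND-646 replicate 1 the first was 2.16 (adjusted p = 1.14e-06). A near-identical pseudogene lies beside IDS, so its counts are uncertain to the extent that reads were divided between both.

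ARSA, which removes sulfate from sulfatide, rose by nearly the same amount in 5 groups, 0.82 to 0.84 on the log2 scale, and by 0.54 with doxorubicin. The ND-646 value of ARSA was 0.65 (adjusted p = 0.000982) without replicate 1. ARSB fell instead. It held 13.5, 13.3 and 16.2 CPM at day 0, 6.42, 6.33 and 8.17 with ND-646, 7.33, 6.67 and 7.38 with TVB-3166 and 6.73, 5.97 and 9.87 with bleomycin. Its log2 fold change was -1.04 ± 0.19 (adjusted p = 0.00303) with ND-646, -1.002 ± 0.14 (adjusted p = 0.000142) with TVB-3166 and -0.92 ± 0.21 (adjusted p = 0.00483) with bleomycin by edgeR, against -0.043 ± 0.17 (adjusted p = 0.849) with doxorubicin. SGSH, which acts on heparan sulfate, was called against day 0 with doxorubicin, -0.27 ± 0.10 (adjusted p = 0.0481), and this call was lost in 5 of the 6 fits without 1 library. Against day 7 SGSH was -0.19 (adjusted p = 0.108) with doxorubicin and higher with TVB-3166, 0.26 (adjusted p = 0.031), and palbociclib, 0.31 (adjusted p = 0.0266). GALNS, which acts on keratan sulfate, was called against day 0 with palbociclib, 0.40 ± 0.10 (adjusted p = 0.00716), and alisertib, 0.28 ± 0.10 (adjusted p = 0.0466). The alisertib call of GALNS was lost in 5 of the 6 fits without 1 library. Against day 7 it was also higher with ND-646, 0.65 (adjusted p = 0.0234), TVB-3166, 0.41 (adjusted p = 0.00688), and doxorubicin, 0.36 (adjusted p = 0.0161).

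Lipid hydrolases and carriers degrade sphingolipids and cholesteryl esters and move the products. Of the 8 lipid hydrolases and carriers, 5 rose and 0 fell with ND-646, 6 rose and 0 fell with TVB-3166, and 5 rose and 2 fell with bleomycin. The counts were 4 and 1 with doxorubicin, 4 and 1 with palbociclib and 2 and 1 with alisertib. NPC2, the soluble carrier that hands cholesterol to NPC1, stood out in FASTIS. It held 31.5, 27.9 and 29.5 CPM at day 0, 171, 76.5 and 84.7 with ND-646 and 83.6, 70.2 and 75.7 with TVB-3166. Both FASTIS groups lay above all other libraries, and ND-646 replicate 1 was well above the other ND-646 libraries. NPC2 rose on the log2 scale by 1.89 ± 0.29 (adjusted p = 0.00125) with ND-646, or 1.44 (adjusted p = 7.11e-06) without that library, and 1.37 ± 0.10 (adjusted p = 1.78e-06) with TVB-3166. It was 0.69 ± 0.12 (adjusted p = 0.00127) with bleomycin. NPC2 lies opposite to ISCA2, an iron-sulfur assembly gene whose log2 fold change was 0.40 (adjusted p = 0.172) with ND-646 and 0.14 (adjusted p = 0.365) with TVB-3166. By edgeR, ISCA2 was at -0.24 (adjusted p = 0.215) with bleomycin and 0.064 (adjusted p = 0.703) with alisertib. It was lower with doxorubicin, -0.41 (adjusted p = 0.0445), and palbociclib, -0.44 (adjusted p = 0.0123). NPC1, the membrane partner of NPC2, rose by 0.80 ± 0.11 (adjusted p = 0.000308) with bleomycin and by 0.69 ± 0.16 (adjusted p = 0.0105) with ND-646, and was 0.035 ± 0.11 (adjusted p = 0.807) with palbociclib. The NPC1 calls with ND-646 and TVB-3166 were lost without day-0 replicate 2, at an adjusted p of 0.0613 and 0.0783.

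LIPA, the acid lipase that frees cholesterol and fatty acids from lipoprotein lipids, rose by 1.002 ± 0.14 (adjusted p = 0.000811) with ND-646, 0.99 ± 0.092 (adjusted p = 8.07e-06) with TVB-3166 and 0.69 ± 0.096 (adjusted p = 0.000184) with palbociclib. Its values in the other 3 TIS groups were 0.15 to 0.21 with no call. ASAH1, the acid ceramidase, held 112, 106 and 116 CPM at day 0 and 260.1, 278 and 273 with ND-646, a log2 fold change of 1.27 ± 0.13 (adjusted p = 0.000165). PSAP held 1034, 1929 and 1887 CPM at day 0 and 5273, 3655 and 3668 with ND-646, a log2 fold change of 1.37 ± 0.29 (adjusted p = 0.00634), or 1.18 (adjusted p = 0.00227) without ND-646 replicate 1. Day-0 replicate 1 was the lowest PSAP library, under both others by over 1.5-fold. GM2A, the activator that lifts GM2 ganglioside for HEXA, rose most with bleomycin, 0.87 ± 0.10 (adjusted p = 0.000182). PPT1 was lower with bleomycin, -0.71 ± 0.19 (adjusted p = 0.0119), and against day 7 also with doxorubicin, -0.31 (adjusted p = 0.0252). SMPD1, the acid sphingomyelinase, was lower in the 4 groups outside FASTIS, with log2 fold changes of -0.34 with alisertib to -0.81 with palbociclib. Untreated day-7 cells had an SMPD1 value of -0.61 (adjusted p = 0.0595), and against day 7 the palbociclib value was -0.17 (adjusted p = 0.221). The other 3 changed sign against day 7, to 0.020 (adjusted p = 0.928) with bleomycin, 0.018 (adjusted p = 0.909) with doxorubicin and 0.30 (adjusted p = 0.0595) with alisertib.

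Peptidases finish the breakdown of proteins. Of the 9 peptidases, 6 rose and 1 fell with ND-646, 5 rose and 1 fell with TVB-3166, and 5 rose and 1 fell with bleomycin. The counts were 3 and 0 with doxorubicin, 3 and 0 with palbociclib and 1 and 1 with alisertib. CTSD, the most abundant member, held 3326, 3339 and 2894 CPM at day 0, 7331, 5096 and 4911 with ND-646 and 5022, 4822 and 5263 with TVB-3166. Its log2 fold change was 0.85 ± 0.23 (adjusted p = 0.0188) with ND-646 and 0.67 ± 0.12 (adjusted p = 0.000797) with TVB-3166 by edgeR. The ND-646 value was 0.65 (adjusted p = 0.00275) without replicate 1 of that group. That call of CTSD was lost without day-0 replicate 2 (adjusted p = 0.0712) or replicate 3 (0.0927). CTSL, the cysteine protease cathepsin L, rose by 1.14 ± 0.25 (adjusted p = 0.0074) with ND-646, or 0.79 (adjusted p = 0.000659) without replicate 1, and by 1.01 ± 0.12 (adjusted p = 0.000198) with bleomycin. TPP1, which trims tripeptides, rose by 0.93 ± 0.15 (adjusted p = 0.00184) with ND-646 and 0.69 ± 0.13 (adjusted p = 0.00229) with bleomycin and was -0.038 ± 0.11 (adjusted p = 0.797) with palbociclib. CTSB rose most with bleomycin, 0.63 ± 0.099 (adjusted p = 0.000758), and CTSH most with ND-646, 0.64 ± 0.20 (adjusted p = 0.0344). With ND-646, CTSB lost its call in 5 and CTSH in 4 of the 6 fits without 1 library, and the CTSH value was 0.44 (adjusted p = 0.0293) without ND-646 replicate 1. CTSA, which protects GLB1 and NEU1 in a shared complex, was called against day 0 at 0.49 ± 0.17 (adjusted p = 0.0484) with ND-646 and 0.35 ± 0.094 (adjusted p = 0.0079) with TVB-3166. The ND-646 value of CTSA was 0.33 (adjusted p = 0.025) without replicate 1, and its call was lost in each of the 5 other fits without 1 library. Against day 7 CTSA was also higher with bleomycin, 0.55 (adjusted p = 0.00166), doxorubicin, 0.51 (adjusted p = 0.000625), and palbociclib, 0.58 (adjusted p = 0.000109). CTSA lies opposite to PLTP, a phospholipid transfer gene that rose by 1.70 (adjusted p = 0.000819) with ND-646 and 1.45 (adjusted p = 0.000119) with TVB-3166. LGMN, an asparaginyl endopeptidase, was called against day 0 with palbociclib, 0.37 ± 0.10 (adjusted p = 0.0115). Against day 7 LGMN was 0.15 (adjusted p = 0.0933) with palbociclib and was lower with TVB-3166, -0.34 (adjusted p = 0.00407).

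CTSC, the dipeptidyl peptidase that activates serine proteases of immune cells, fell. It held 107, 118 and 134 CPM at day 0, 61.3, 51.4 and 48.5 with ND-646 and 62.5, 56.9 and 55.5 with TVB-3166, and all 6 FASTIS libraries lay below every library of day 0. It held 114, 100.2 and 118 CPM with palbociclib, which overlapped day 0. CTSC changed on the log2 scale by -1.16 ± 0.16 (adjusted p = 0.000646) with ND-646, -1.03 ± 0.11 (adjusted p = 1.65e-05) with TVB-3166, -0.60 ± 0.16 (adjusted p = 0.0116) with bleomycin and -0.46 ± 0.11 (adjusted p = 0.00876) with alisertib. It was -0.11 ± 0.11 (adjusted p = 0.426) with palbociclib.

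Membrane proteins include the structural LAMP proteins and channels. Of the 6 membrane proteins, 3 rose and 1 fell with ND-646, 3 rose and 1 fell with TVB-3166, and 3 rose and 2 fell with bleomycin. The counts were 3 and 0 with doxorubicin, 2 and 2 with palbociclib and 2 and 0 with alisertib. CD63 marks late endosomes and exosomes and was also chosen for RT-qPCR in the study. CD63 held 155, 157 and 148 CPM at day 0 and 146, 157 and 142 at day 7. It held 879, 435 and 474 CPM with ND-646, 342, 341 and 347 with TVB-3166 and 264, 254 and 256 with bleomycin. The FASTIS libraries were the 6 highest of the 24, the ND-646 libraries lay above the TVB-3166 libraries, and ND-646 replicate 1 was far above the rest. The log2 fold change was 1.95 ± 0.26 (adjusted p = 0.000675) with ND-646, or 1.57 (adjusted p = 2.99e-06) without that library, and 1.17 ± 0.087 (adjusted p = 1.88e-06) with TVB-3166. It was 0.76 ± 0.093 (adjusted p = 0.000215) with bleomycin, 0.47 ± 0.080 (adjusted p = 0.00117) with doxorubicin, and 0.18 ± 0.085 (adjusted p = 0.1) with palbociclib, which was 0.23 (adjusted p = 0.0279) against day 7. LAMP2, a structural protein that also serves chaperone-mediated autophagy, rose in all 6 groups, by 0.25 with alisertib to 0.93 with ND-646. Its alisertib and doxorubicin calls were each lost in 4 of the 6 fits without 1 library, and against day 7 the values were 0.068 (adjusted p = 0.606) and 0.084 (adjusted p = 0.506). SCARB2, the receptor that carries glucocerebrosidase to lysosomes, rose likewise, by 0.29 to 0.74. Its alisertib call was lost in several fits without 1 library, as without alisertib replicate 3 (adjusted p = 0.127). Its doxorubicin call was also lost in several, as without day-0 replicate 2 (adjusted p = 0.0685). Against day 7 the SCARB2 values were 0.31 (adjusted p = 0.0188) with alisertib and 0.36 (adjusted p = 0.00482) with doxorubicin. LAMP1, often taken as a measure of lysosomal mass, was not called against day 0 in any group, with log2 fold changes of -0.18 to 0.28. Against day 7 it was higher in 4 groups, at 0.63 (adjusted p = 0.0129) with ND-646, 0.47 (adjusted p = 0.000948) with palbociclib, 0.32 (adjusted p = 0.00574) with TVB-3166 and 0.30 (adjusted p = 0.0414) with bleomycin.

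MCOLN1 held 23.9, 13.6 and 15.4 CPM at day 0 and 12.5, 8.49 and 10.96 at day 7. It held 10.1, 8.19 and 10.02 CPM with TVB-3166 and 10.2, 9.21 and 10.2 with palbociclib. Day-0 replicate 1 was over 1.5-fold above both other day-0 libraries, and the treated libraries overlapped those of day 7. The log2 fold change was -0.90 ± 0.20 (adjusted p = 0.0029) with TVB-3166 and -0.84 ± 0.20 (adjusted p = 0.00443) with palbociclib against day 0, and -0.17 (adjusted p = 0.411) and -0.098 (adjusted p = 0.636) against day 7. With ND-646 it was -0.73 (adjusted p = 0.035) against day 0 and 0.0010 (adjusted p = 0.997) against day 7. With doxorubicin MCOLN1 was higher against day 7, 0.45 (adjusted p = 0.0355). CLN3, whose loss causes a juvenile storage disease, was lower with palbociclib, -0.54 ± 0.12 (adjusted p = 0.00283), and bleomycin, -0.38 ± 0.13 (adjusted p = 0.0408). Against day 7 these CLN3 values were -0.17 (adjusted p = 0.0779) and -0.012 (adjusted p = 0.931), while CLN3 was higher with TVB-3166, 0.44 (adjusted p = 0.00194).

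**Figure D4:**
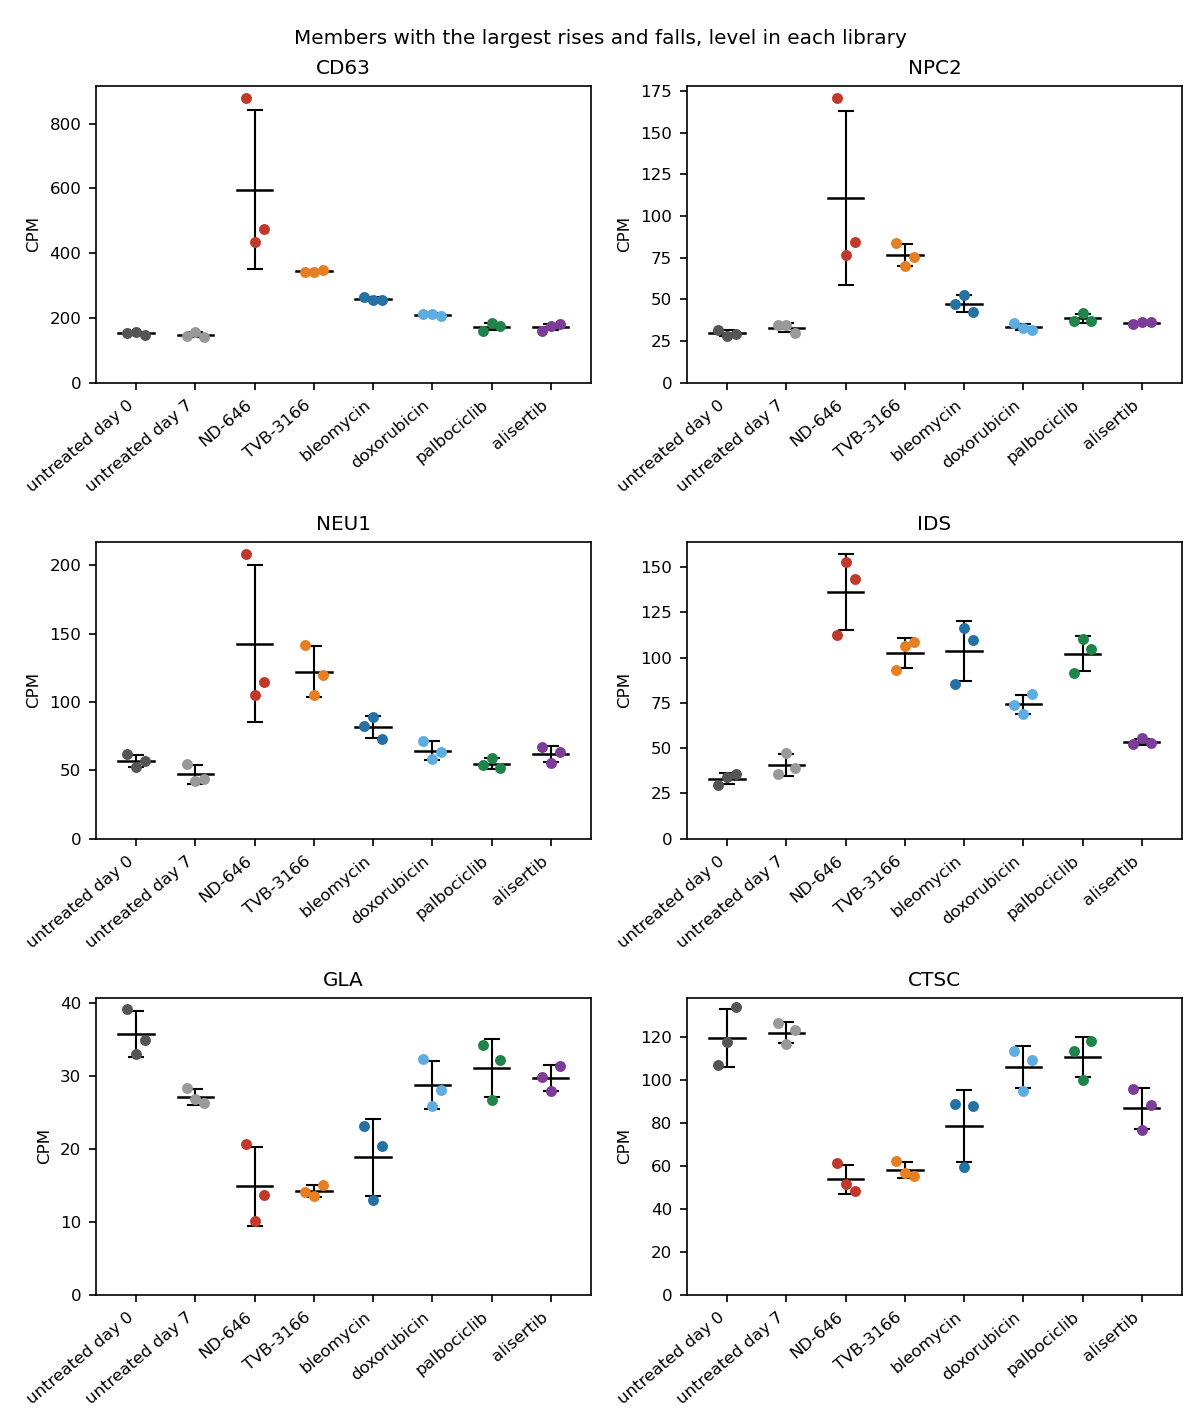
Level in CPM of CD63, NPC2, NEU1, IDS, GLA and CTSC in each library, by group. Points are libraries, the line is the mean and the bar 1 SD (n = 3). The first ND-646 library lies above the others of its group for CD63, NPC2 and NEU1, and GLA and CTSC are lowest in the FASTIS groups.

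The untreated day-7 cells served as the second reference, since they shared the collection day with the TIS cells. Their labels name no refeed, unlike those of the TIS groups, so drug and refeed cannot be told apart in this comparison. Summed over the 6 TIS groups, 110 member rises were called against day 0, 122 against day 7, and 97 were called against both. Of the falls, 25 were called against day 0, 16 against day 7, and 13 against both. The shares of all genes called against both references in each group were not worked out. The share of all genes called higher against day 7 was 17.2% with ND-646, 25.4% with TVB-3166, 22.4% with bleomycin, 21.9% with doxorubicin, 22% with palbociclib and 9.55% with alisertib. Against day 7, 23 members were higher with ND-646, 27 with TVB-3166, 22 with bleomycin, 19 with doxorubicin, 19 with palbociclib and 12 with alisertib. Called lower were 3 with ND-646 (17.1% of all genes), 5 with TVB-3166 (26.1%), 4 with bleomycin (23.2%), 1 with doxorubicin (21.5%), 2 with palbociclib (22.9%) and 1 with alisertib (9.49%). LAMP1 and CLN3, whose day-7 values against day 0 were -0.33 (adjusted p = 0.0894) and -0.35 (adjusted p = 0.124), were called higher against day 7 in both FASTIS groups, LAMP1 also with bleomycin and palbociclib, and CLN3 also with alisertib. The falls that were not called against day 7 were mainly those of SMPD1, MCOLN1 and CLN3. The falls of GLA, ARSB and CTSC with ND-646, TVB-3166 and bleomycin were called against both references.

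The 2 FASTIS drugs, given at the same dose and collected on the same day, were compared directly. By edgeR 0 of 39 members were higher with TVB-3166 than with ND-646 (0.52% of all genes were) and 0 were lower (0.198%). At an unadjusted p under 0.05 there were 5 members, DESeq2 called 1, and the fit with the replicate number as a block called 0. The mean was lower with TVB-3166 for 30 of the 39 members. For 36 the interval of 2 SE on each side of the log2 difference lay within 1 unit of 0. Such intervals are narrower than 95% intervals with so few libraries. For GLB1 the difference was -0.086 ± 0.12 (adjusted p = 0.776), or -0.025 (adjusted p = 0.881) without ND-646 replicate 1, with an interval of -0.32 to 0.15. CD63 had the largest difference, -0.79 ± 0.26 (adjusted p = 0.218), with an interval of -1.31 to -0.27. Without ND-646 replicate 1 the CD63 difference was -0.40 (adjusted p = 0.0114), which passed, and 3 members were then higher and 3 lower with TVB-3166, GUSB at 0.30 (adjusted p = 0.0414) among the higher. A p that misses the threshold does not show that both drugs gave the same levels.

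The FASTIS groups were then set against the other 4 TIS groups in 1 fit of 18 libraries, which uses no untreated library. In it, 21 of 39 members were higher in FASTIS (26.1% of all genes tested were) and 7 lower (24%). The median log2 difference was 0.21 for the members and 0.02 for all genes. Membrane proteins and lipid genes had the largest shares higher in FASTIS, 5 of 6 and 5 of 8 against 1 and 0 lower. Of the 11 glycosidases 4 were higher and 3 lower, of the 9 peptidases 5 and 2, and of the 5 sulfatases 2 and 1. NPC2 had the largest difference, 1.26 ± 0.12 (adjusted p = 3.73e-07), followed by CD63, 1.19 ± 0.11 (adjusted p = 1.54e-07), and NEU1, 1.03 ± 0.12 (adjusted p = 1.84e-06). Without ND-646 replicate 1 these were 1.03 (adjusted p = 4.89e-10), 0.98 (adjusted p = 2.93e-11) and 0.83 (adjusted p = 5.79e-08). ISCA2, which lies opposite to NPC2, was also higher in FASTIS by edgeR, by 0.54 (adjusted p = 0.000435). The part of ISCA2 in the NPC2 difference was not tested. LIPA was higher by 0.69 ± 0.056 (adjusted p = 4.89e-08) and HEXA by 0.62 ± 0.088 (adjusted p = 1.95e-05), and GLB1 by 0.18 ± 0.053 (adjusted p = 0.00761).

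At the other end, 3 members had the largest falls in FASTIS relative to the other TIS groups, a log2 difference of -0.86 ± 0.14 (adjusted p = 6.13e-05) for GLA, -0.75 ± 0.090 (adjusted p = 3.25e-06) for CTSC and -0.56 ± 0.12 (adjusted p = 0.00075) for ARSB. Without ND-646 replicate 1 the GLA difference was -1.03 (adjusted p = 1.65e-06). RPL36A, which lies opposite to GLA, was higher in FASTIS by edgeR, by 0.56 (adjusted p = 0.00428). GAA, which rose in all 6 groups against day 0, was lower in FASTIS than in the other TIS groups, with a log2 difference of -0.31 ± 0.069 (adjusted p = 0.00125). MAN2B1 and ARSA, which also rose in all 6, differed by 0.11 ± 0.074 (adjusted p = 0.227) and 0.078 ± 0.079 (adjusted p = 0.433). SMPD1 and CLN3 were higher in FASTIS, by 0.40 ± 0.11 (adjusted p = 0.00577) and 0.46 ± 0.085 (adjusted p = 0.000234). The SMPD1 difference was 0.22 (adjusted p = 0.0115) and that of CLN3 0.34 (adjusted p = 9.72e-05) when ND-646 replicate 1 was left out. The calls of SGSH and LAMP1 among the higher members, and of MANBA, LGMN and MCOLN1 among the lower, were lost in at least 1 fit without 1 library. LAMP1 was 0.13 (adjusted p = 0.075) without ND-646 replicate 1. The endothelial marker CDH5 was lower in FASTIS, with a log2 difference of -1.31 ± 0.12 (adjusted p = 2.57e-07), and its part in these differences was not tested.

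**Figure D5:**
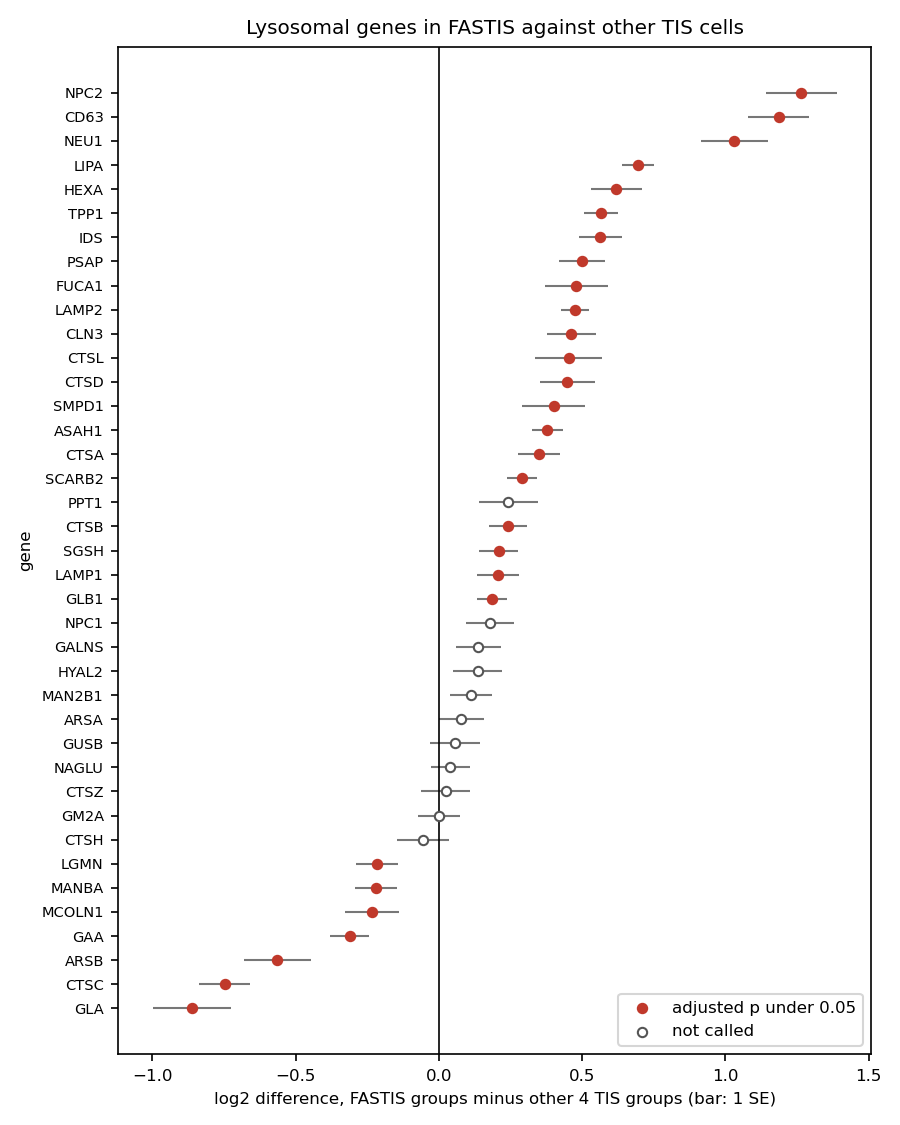
log2 difference between the FASTIS groups (6 libraries) and the other 4 TIS groups (12 libraries) for each of the 39 lysosomal genes, ordered by size, with bars of 1 SE. Filled points have an adjusted p under 0.05 by edgeR, 21 to the right of 0 and 7 to the left, from GLA at -0.86 to NPC2 at 1.26.

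The members with CACGTG in the promoter window shown above did not move as 1 group. Of these 13, 7 rose and 1 fell with ND-646 and with TVB-3166, and 5 rose and 2 fell with bleomycin. The counts were 2 and 1 with doxorubicin, 4 and 2 with palbociclib and 2 and 0 with alisertib. Of the 25 tested members whose compared window held no CACGTG, 14 rose and 3 fell with each FASTIS drug, and 14 and 5 with bleomycin. They were 13 and 2 with doxorubicin, 13 and 3 with palbociclib and 9 and 2 with alisertib. Between FASTIS and the other TIS groups, 9 of the 13 were higher and 2 lower, against 11 and 5 of the 25. Of all genes, 17.7 to 27.4% rose and 18.8 to 27.7% fell in the TIS groups, and 26.1% and 24% were higher and lower in FASTIS. GAA and CD63 were among those with the motif that rose with ND-646, and MCOLN1 and CLN3 were the ones that fell with palbociclib. Neither of these palbociclib falls was called against day 7. Of the members with the 4 largest rises with ND-646, CD63 held CACGTG in the window, and IDS, NPC2 and FUCA1 did not. The TFEB transcript was lower than at day 0 in all 6 TIS groups, with log2 fold changes of -0.68 with ND-646 to -0.99 with alisertib, and MITF was lower than at day 0 with both FASTIS drugs, at -0.94 (adjusted p = 0.0383) with ND-646 and -0.76 (adjusted p = 0.00937) with TVB-3166. In untreated day-7 cells 0 of the 3 factors TFEB, TFE3 and MITF were called, but 0 lay above day 0, with a median of -0.38. The part of time in culture in these falls was not tested. These are transcript levels and say nothing of the location of the proteins.

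Beside the members, 65 other genes of the lysosome were listed, of which 61 were tested. Of these 61, 18 rose (29.5%, against 19.1% of all genes) and 11 fell (18%, against 18.8%) with ND-646. With the second FASTIS drug, 22 rose (36.1%, against 27.4% of all genes) and 15 fell (24.6%, against 27.7%) with TVB-3166. Among the DNA-damaging drugs, 16 rose (26.2%, against 24.1% of all genes) and 16 fell (26.2%, against 25.3%) with bleomycin, and 15 rose (24.6%, against 23.7% of all genes) and 14 fell (23%, against 24.8%) with doxorubicin. For the kinase inhibitors, 15 rose (24.6%, against 26% of all genes) and 15 fell (24.6%, against 27.2%) with palbociclib, and 8 rose (13.1%, against 17.7% of all genes) and 15 fell (24.6%, against 19.6%) with alisertib. The proton pump is needed for the acid pH at which the members work. Of its 15 subunits and accessory genes, 2 rose (13.3%) and 1 fell (6.67%) with ND-646, and 3 rose (20%) and 3 fell (20%) with TVB-3166. The counts were 2 (13.3%) and 5 (33.3%) with bleomycin and 1 (6.67%) and 5 (33.3%) with doxorubicin. They were 1 (6.67%) and 6 (40%) with palbociclib and 0 (0%) and 6 (40%) with alisertib, beside the shares of all genes just given. In untreated day-7 cells 0 rose and 1 fell (6.67%, against 0.198% of all genes). There 2 of the 15 were above 0, and the median was -0.24, against -0.18 with palbociclib. Between FASTIS and the other TIS groups 11 of the 15 were higher (73.3%, against 26.1% of all genes) and 0 lower (against 24%), with a median log2 difference of 0.30. ATP6V0D1, a subunit of the membrane sector, was lower in all 6 TIS groups and also in untreated day-7 cells, at a log2 fold change there of -0.57 (adjusted p = 0.0474). The macrophage-associated lysosomal glycoprotein CD68 was higher by 3.11 (adjusted p = 2.13e-05) with ND-646 and 2.97 (adjusted p = 3.46e-05) with bleomycin, and the protease CTSS by 4.25 (adjusted p = 3.25e-05) with bleomycin, while 0 of the 4 leukocyte markers were in the table. A marker absent from the table may still have reads in some libraries, so its level in these groups was not tested. The paralogs of GLB1 went opposite ways: GLB1L2 was lower in all 6 groups, with log2 fold changes of -0.55 with palbociclib to -1.49 with bleomycin, and GLB1L was higher in 5, by 0.55 with alisertib to 1.003 with bleomycin. These values are against day 0. Untreated day-7 cells had 0 of the 2 paralogs called, 1 of them above 0, and a median log2 fold change of 0.29, so that 1 paralog lay above 0.29 without any drug. The part of time in culture in the paralog values was not tested. The paralog values against day 7 are not given here.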

How the data were processed

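RNA-seq was made from 24 libraries of SKBR3 cells, and groups and replicate numbers were taken from the sample labels. Per the labels and methods, the authors used HISAT2 on GRCh37, then StringTie, with DESeq2 for their comparisons. The authors deposited whole-number read counts per gene, not normalized, and the counting settings and use of strand are not given in the sources used here. The labels name an mRNA kit and the methods a total RNA kit. Genes absent from the table, such as those without reads in some libraries, were not tested. Of the 39 members, 20 overlap an exon of another annotated gene (GENCODE v44lift37), 10 on the same strand and 14 on the opposite strand.

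The test was edgeR's quasi-likelihood F-test (version 4.0.16, R 4.3.3; 2-sided glmQLFTest on a glmQLFit, with TMM scaling and the filterByExpr filter) over the whole table, with Benjamini-Hochberg adjustment over all genes and calls at an adjusted p under 0.05. CPM are counts scaled to a common library total. Each pair fit used only the 6 libraries of both groups, FASTIS against other TIS the 18 TIS libraries, and GLB1 pairs all 24. Library sizes were 29405121 to 44316330, and counting error was not set apart from the replicate spread. On simulated counts for ND-646 against day 0 (13604 genes, 200 changed), edgeR recovered 118, none of them 1.5-fold changes, with 9 false calls; for FASTIS against other TIS it recovered 181 with 8 false calls. Libraries of ND-646 and TVB-3166 with the same number shared their deviations from the group means in 3 of 3 pairs (correlations 0.211 to 0.379), which pairs them, whereas each comparison with day 0 had at least 1 pair under 0.1; no source says that the numbers mark a shared batch.

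Named were GLB1, CD63 and GUSB in every comparison, the 3 largest rises and 3 largest falls among calls, and further members as examples of their role. The members and lists were chosen with earlier results of these data known. Alternatives were DESeq2 1.42.0, RLE scaling, no filter, 1 fit over all libraries, a replicate block, the day-7 reference, a 2-fold rule and leaving out each library. Promoter windows and gene positions are from GRCh37 with GENCODE v44lift37, and the window of 1 member is not reported here.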

Additional observations from a re-analysis of the deposited data

Results flagged for a closer look

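The direct test between the FASTIS groups and the other 4 TIS groups (edgeR's quasi-likelihood test, Benjamini-Hochberg adjustment over all genes) is what draws attention to these results. In it 21 members were higher and 7 lower in FASTIS, against 26.1% and 24% of all genes. The log2 difference was 1.26 (adjusted p = 3.73e-07) for NPC2, 1.19 (adjusted p = 1.54e-07) for CD63 and 1.03 (adjusted p = 1.84e-06) for NEU1. It was -0.86 (adjusted p = 6.13e-05) for GLA, -0.75 (adjusted p = 3.25e-06) for CTSC and -0.56 (adjusted p = 0.00075) for ARSB. For GLB1 it was 0.18 (adjusted p = 0.00761). For ISCA2, opposite to NPC2, it was 0.54 (adjusted p = 0.000435), and for RPL36A, opposite to GLA, 0.56 (adjusted p = 0.00428). Without ND-646 replicate 1, which stood apart, the difference was 1.03 for NPC2, 0.98 for CD63, 0.83 for NEU1 and -1.03 for GLA, each still past the threshold.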

How the results depend on the processing

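Of 2614 gene values recomputed under alternatives, 2305 kept their direction and side of the threshold, 291 lost the call (the 2-fold rule included), 5 gained one and 13 changed sign. The sign changed against the day-7 reference for MCOLN1 with ND-646 (0.0010) and bleomycin (0.062), SMPD1 with bleomycin (0.020), doxorubicin (0.018) and alisertib (0.30), GLA with doxorubicin (0.11), and the uncalled GUSB with TVB-3166 (0.090), bleomycin (0.098), doxorubicin (0.13) and alisertib (0.11). GUSB also changed sign between TVB-3166 and ND-646 without ND-646 replicate 2 (-0.017) or 3 (-0.0094), and between FASTIS and other TIS without ND-646 replicate 1 (-0.058). Requiring a 2-fold change with an unadjusted p under 0.05, in place of an adjusted p under 0.05, left 10 members higher with ND-646, 7 with TVB-3166, 6 with bleomycin, 1 with doxorubicin, 5 with palbociclib, 1 with alisertib and 3 in FASTIS against other TIS, and 0 lower with bleomycin, doxorubicin, palbociclib, alisertib and in FASTIS against other TIS. The day-7 reference left 4 lower with bleomycin, 1 with doxorubicin, 2 with palbociclib and 1 with alisertib. For alisertib the lower members numbered 4 by DESeq2, 1 in 1 fit over all 24 libraries and 5 with the replicate block. Between untreated day 7 and day 0 the replicate block called 1 higher and 6 lower, DESeq2 5 lower and the fit over all libraries 2 lower. Between TVB-3166 and ND-646 DESeq2 called 1 lower, the fit over all libraries 5, and the replicate block none. The replicate block moved no other count of calls by over 1.5 times. The cause of these changes was not tested.

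Leaving out 1 library at a time gave 16 to 22 higher and 3 to 6 lower with ND-646, 21 to 22 higher and 4 to 4 lower with TVB-3166, 18 to 19 higher and 5 to 7 lower with bleomycin, 16 to 19 higher and 4 to 5 lower with palbociclib, and 19 to 25 higher and 4 to 7 lower in FASTIS against other TIS, where the fewest lower came without ND-646 replicate 3. It gave 10 to 16 higher and 1 to 2 lower with doxorubicin, fewest higher without doxorubicin replicate 1, and 6 to 13 higher and 1 to 3 lower with alisertib, fewest higher without alisertib replicate 3. It gave 0 to 0 higher and 0 to 0 lower for untreated day 7 and 0 to 3 higher and 0 to 3 lower for TVB-3166 against ND-646, the 3 and 3 without ND-646 replicate 1 alone. GLB1 pairs called numbered 11 to 13. On the simulated counts edgeR recovered 0 of the 1.5-fold changes for ND-646 against day 0 and 36 for FASTIS against other TIS. That simulation changed 200 of 13604 genes, whereas 19.1% rose and 18.8% fell with ND-646 in the data. Its recovery therefore does not give the power of these fits.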
